A study of Schizosaccharomyces pombe with 23 samples.

Results

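The Pu-Seq libraries of *nup132Δ* fission yeast with an active replication fork barrier (RFB ON) were compared with those of wild type (WT) RFB ON over all 3 chromosomes, leaving out the 70 kb around the barrier on chromosome II. The comparison holds 8 *nup132Δ* RFB ON libraries and 2 WT RFB ON libraries of the 23 libraries in the series, and 41675 of 41909 bins of 300 bp. Every strain of these 10 libraries carried Rura-ChrII and RTS1::phleo, listed as separate alleles, and *rtf1* behind the *ADH1* promoter (Nat:ADH1:rtf1). All also carried an *rnh201-RED:Kan* allele that leaves ribonucleotides in the DNA, and the *ura4-D18*, *ade6-704* and *leu1-32* markers. Cells were grown at 30C in YE medium to log phase. Pol δ libraries came from strains with *cdc6-L591G*, and Pol ε libraries from strains with *cdc20-M630F*. The *nup132Δ* Pol δ libraries were KK1901 and KK1902, in which the deletion is marked with Hygro, and KK1517 and KK1518, whose marker the labels do not name. Of the *nup132Δ* Pol ε libraries, KK1905 and KK1906 carry the Hygro marker and KK1523 and KK1524 have none named. WT was represented by the Pol δ library KK1471 and the Pol ε library KK1475. WT RFB OFF libraries, in which *rtf1* is deleted (rtf1::Nat) and the other alleles are those of WT RFB ON, served to define origins and fork directions (Pol δ KK1467, Pol ε KK1473 and KK1474). The labels give each library its own strain number and say nothing further on separate cultures, so p-values measure the spread between these libraries, which may be technical.

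Pu-Seq reads out which polymerase made each strand. DNA polymerase ε synthesizes most of the leading strand and DNA polymerase δ most of the lagging strand, and the mutant forms insert more ribonucleotides, at which the DNA is cut before sequencing. A fork that moves rightward leaves Pol ε on the Watson strand and Pol δ on the Crick strand, and a leftward fork leaves the opposite. The rightward share R of a bin is the mean of Pol ε usage on Watson and Pol δ usage on Crick, and lies at 0.5 where forks of both directions are equally frequent. Replication origins appear as places where R steps up, because forks leave them in both directions. In *S. pombe* they lie mostly in AT-rich intergenic DNA, where the origin recognition complex binds through AT-hook motifs of its Orc4 subunit. Nup132 belongs to the Y complex of the nuclear pore core, and cells without it fail to keep the SUMO protease Ulp1 at the nuclear periphery.

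Total counts lay between 5396348 and 38663174 in the *nup132Δ* libraries, and were 6505386 in KK1471 and 17765156 in KK1475. Counts on *nup132* itself, an open reading frame on chromosome I that spans 12 whole bins, were between 1.16% and 1.73% of WT in the 8 libraries labelled *nup132Δ*, relative to flanking bins. Those on *rtf1*, whose product activates the barrier and which all RFB ON strains carry, were between 101% and 119% of WT. The 12 pairs of *nup132Δ* libraries of one polymerase differed by 1.53 to 14.8 times the chi-square that counting error gives, so all differed by more than counting error, which does not tell separate cultures from separate preparations. The counting error of the strand asymmetry given below was at most 0.000473 in any of these libraries, far under the spread between them. Of the WT RFB ON libraries, the Pol δ library KK1470 held 3167 counts and enters only where it is named, and the WT RFB OFF Pol δ library KK1468, with a mean of under 10 counts per bin, was not used.

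Origins were taken from the 3 deep WT RFB OFF libraries, which belong to neither group, as local maxima of the step, defined as mean R over the 3 kb to the right of a bin minus mean R over the 3 kb to its left. A step of at least 0.1 gave 535 origins, of which 223 lay on chromosome I, 210 on II and 102 on III, with a median gap of 20.1 kb. The 328 origins with a step of at least 0.3 are called strong and the other 207 weak. Gene names and sequences are given on chromosome I alone, where the last bin of the files ends within the same 300 bp as the RefSeq sequence (ASM294v3). The bins of 3 origins are shown, forward strand 5′ to 3′, because they carry the comparison of steps below. The first and second have the largest steps on chromosome I in WT RFB OFF. The third had the lowest fitted difference from WT on that chromosome in the step divided by the strand asymmetry of the library (explained below). It was chosen among origins where all 8 libraries lay on one side of WT in that measure. Capitals mark runs of at least 7 A or at least 7 T.
chrI:4087801-4088100: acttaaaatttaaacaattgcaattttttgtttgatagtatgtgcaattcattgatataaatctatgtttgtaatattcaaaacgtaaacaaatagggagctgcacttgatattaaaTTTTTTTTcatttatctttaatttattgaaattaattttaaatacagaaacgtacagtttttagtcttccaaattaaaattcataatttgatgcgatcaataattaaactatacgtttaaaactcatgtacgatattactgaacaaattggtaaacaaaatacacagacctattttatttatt
chrI:3634801-3635100: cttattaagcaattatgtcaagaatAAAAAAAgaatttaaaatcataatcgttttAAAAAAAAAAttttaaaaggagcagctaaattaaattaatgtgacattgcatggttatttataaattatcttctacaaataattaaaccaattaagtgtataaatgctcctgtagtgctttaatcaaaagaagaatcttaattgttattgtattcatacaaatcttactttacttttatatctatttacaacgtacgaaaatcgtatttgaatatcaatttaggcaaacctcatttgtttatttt
chrI:3300301-3300600: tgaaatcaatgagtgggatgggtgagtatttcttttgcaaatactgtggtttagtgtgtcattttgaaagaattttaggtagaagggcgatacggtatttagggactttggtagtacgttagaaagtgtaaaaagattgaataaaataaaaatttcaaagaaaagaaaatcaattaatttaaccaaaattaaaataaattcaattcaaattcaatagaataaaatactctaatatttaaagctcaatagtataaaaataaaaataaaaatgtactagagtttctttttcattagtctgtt

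The first of these bins lies between the divergent genes *mnl1* and *tsc3*, 0.155 kb from the one and 0.631 kb from the other. The second lies 0.927 kb past the end of *noc201* and 0.309 kb ahead of the copper transporter gene *ctr5*. The third lies between the divergent genes *eme1*, for a subunit of the Mus81 structure-specific nuclease, and *glt1*, for glutamate synthase, at 0.388 kb and 2.225 kb. No coding base falls in any of the 3 bins, and their AT content was 78.0%, 78.0% and 75.0%. Over the 223 origin bins of chromosome I the median AT content was 73.7%, against 63.7% over all 18593 bins of that chromosome, and 165 of them (74.0%) held a run of at least 7 A or 7 T, which 28.6% of all bins did. Strong origins were richer in A and T (median 75.3%, n = 145) than weak ones (70.3%, n = 78).

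The strand signal of replication was weaker in every *nup132Δ* library than in WT. Strand asymmetry was read from each library alone, by regressing the Watson share of its counts, bin by bin, on how far Pol δ usage on Watson exceeded that on Crick in WT RFB OFF. Each bin was weighted by its counts. The sign was turned for Pol ε, so that a library in which each polymerase keeps to its strand has a high slope. Among Pol δ libraries it was 0.280 in KK1901, 0.333 in KK1902, 0.349 in KK1518 and 0.403 in KK1517, against 0.498 in WT. Among Pol ε libraries it was 0.206 in KK1905, 0.150 in KK1906, 0.469 in KK1524 and 0.347 in KK1523, against 0.548 in WT. All 8 libraries lay below WT and the groups did not overlap. The WT RFB OFF libraries, which define the axis, had 0.482 for Pol δ and 0.527 for both Pol ε libraries. The *nup132Δ* means were 0.341 ± 0.0506 (SD, n = 4) for Pol δ, or 68.4% of WT, and 0.293 ± 0.144 (SD, n = 4) for Pol ε, or 53.5% of WT. Averaged over the polymerases the difference was -0.206 (two-sided exact permutation p = 0.04, the smallest that 25 arrangements of the labels within a polymerase can give). With Benjamini-Hochberg adjustment over the 22 measures tested in this way the p was 0.0629, so no measure passed 0.05 after adjustment. The effects in the Pol δ and Pol ε libraries were not shown to differ (exact permutation p = 0.8).

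**Figure D1:**
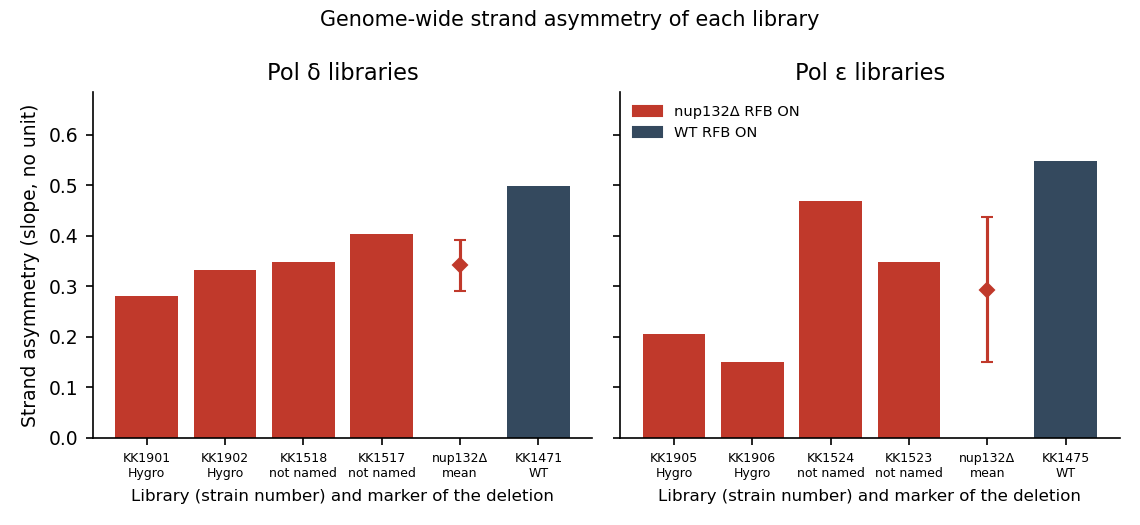
Strand asymmetry of each library (slope, no unit), Pol δ libraries on the left and Pol ε libraries on the right, with *nup132Δ* in red, WT in dark blue, and diamonds with error bars for the *nup132Δ* mean ± SD (n = 4). All *nup132Δ* bars end below WT, and the Pol ε libraries spread from 0.150 to 0.469.

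The marker of the deletion moved with the size of this difference. The Hygro-marked libraries averaged 61.5% (Pol δ, n = 2) and 32.5% (Pol ε, n = 2) of WT, and those with no marker named 75.4% and 74.6%. With the Hygro-marked deletions alone the difference was -0.281 (exact permutation p = 0.111), and with those of no named marker it was -0.131 (p = 0.222 by the same exact test). Both designs allow no p below 0.111. The strain numbers of the 2 classes also lie in separate ranges, so marker and strain construction cannot be told apart. The shallow WT library KK1470 had an asymmetry of 0.405, with a 95% normal interval of 0.367 to 0.443 for counting error only, which lies below KK1471 and beside KK1517. With it as a second WT Pol δ library the difference was -0.183, and all 4 *nup132Δ* Pol δ libraries lay below both, KK1517 by less than that interval.

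The same libraries looked more like the other polymerase. When each library was described as a blend of the WT RFB OFF profiles of both polymerases, with weights of at least 0, the Pol δ part was 78.3%, 84.9%, 85.3% and 89.6% in the *nup132Δ* Pol δ libraries KK1901, KK1902, KK1518 and KK1517, against 100% in KK1471. In the *nup132Δ* Pol ε libraries it was 31.2% in KK1905, 36.5% in KK1906, 6.56% in KK1524 and 18.2% in KK1523, against 0% in KK1475. The values of KK1471 and KK1475 are the bounds of the fit, since both had more asymmetry than the WT RFB OFF libraries. They are not measured purities. The libraries with less asymmetry had the larger part of the other polymerase. Asymmetry and this fit use the same counts and the same WT RFB OFF profiles, so they are not separate observations. Counts without strand preference enter this fit as a mixture too, and the part of either in the differences below was not tested.

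Asymmetry was lower in *nup132Δ* on each chromosome. On chromosome I the *nup132Δ* means were 0.325 ± 0.0531 (Pol δ) and 0.303 ± 0.139 (Pol ε; SD, n = 4 each), which is 66.3% and 55.0% of WT. Chromosome II gave 66.1% and 55.4% of WT, and chromosome III 73.1% and 48.9%. In the 100 kb next to the chromosome ends the percentages were 76.7% for Pol δ and 43.2% for Pol ε, against 67.2% and 54.4% in the interior. All 8 libraries lay below WT on each chromosome, at the ends and in the interior (exact permutation p = 0.04 each, the smallest possible). KK1906 had the lowest asymmetry at the ends, 0.0524, against 0.530 in WT. Weighting by counts favours 162 bins of over 3 times the median count, 127 of them on chromosome III. They held 4.00% (KK1475) to 8.00% (KK1902) of counts. With equal weights, asymmetry on chromosome III was 0.279 instead of 0.327 in KK1901, and 0.485 instead of 0.521 in KK1471. In KK1906 it was 0.127 instead of 0.109, and in KK1475 0.528 instead of 0.540. The part of these bins in the contrasts between regions was not tested.

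Usage of both polymerases on their own strand was lower in *nup132Δ*. In the 4533 bins where R was at least 0.8 in WT RFB OFF, Pol ε usage on the leading strand was 0.728 in *nup132Δ* and 0.850 in WT. Exchanging single libraries of a polymerase, with the other polymerase kept at its mean, since the labels pair none, gave SDs of 0.0264 (Pol δ) and 0.0271 (Pol ε) for *nup132Δ*. Pol δ usage on the lagging strand of these bins was 0.708 in *nup132Δ*, with SDs of 0.0129 and 0.0701, and 0.869 in WT. The 4562 bins with R of at most 0.2 gave 0.727 and 0.708 in *nup132Δ*, against 0.846 and 0.869 in WT. All 4 values lay below WT, on both strands and for both fork directions. Mean Pol δ usage over both strands of all bins was 0.489 in both strains, a mean that scaling by library totals holds near 0.5. The SD over bins of Pol δ usage averaged over both strands was 0.0279 in *nup132Δ* and 0.0550 in WT, and 0.0434 in WT RFB OFF. The *nup132Δ* profile averages 4 libraries per polymerase and that of WT RFB ON holds 1, and the part of counting error in these SDs was not tested.

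R therefore spanned a narrower range without a shift of its middle. Between the 5th and 95th percentile of bins it ran from 0.278 to 0.722 in *nup132Δ* RFB ON and from 0.134 to 0.867 in WT RFB ON. At least 0.8 or at most 0.2 was reached in 0.00720% of bins in *nup132Δ* and in 25.3% in WT. The 16 combinations of a single Pol δ with a single Pol ε *nup132Δ* library had ranges of 0.316 to 0.619, with a median of 0.457, all below the 0.733 of WT. The slope of R - 0.5 on that of WT was 0.593 (r = 0.978 over 41652 bins, which share libraries and neighbours), and 0.591, 0.590 and 0.600 on chromosomes I, II and III. For WT RFB OFF on WT RFB ON it was 0.941.

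**Figure D2:**
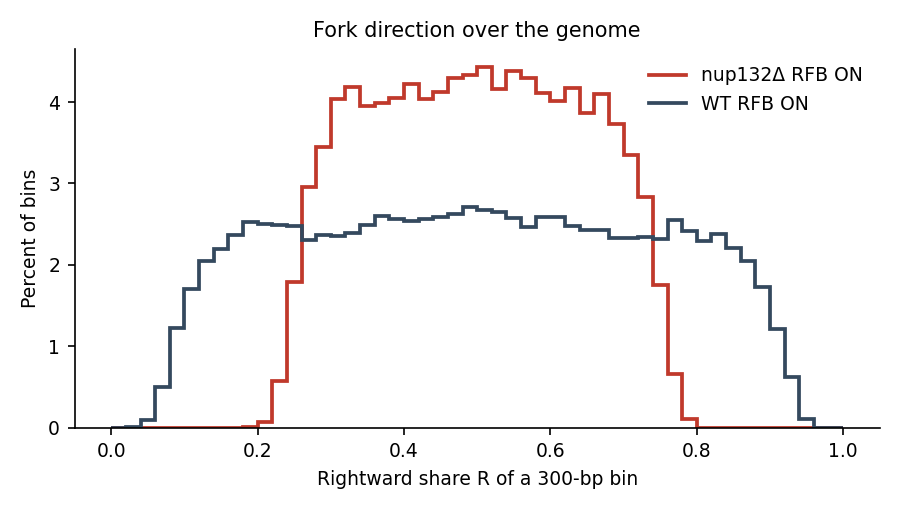
Percent of 300-bp bins by rightward share R, in steps of 0.02, for *nup132Δ* RFB ON (red) and WT RFB ON (dark blue). The *nup132Δ* distribution is confined mainly to 0.278 to 0.722 and that of WT reaches from 0.134 to 0.867 (5th to 95th percentile).

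Fork direction itself was kept in most bins. R smoothed over 11 bins lay on the other side of 0.5 than in WT RFB ON in 1452 of 41636 bins (3.49%) in *nup132Δ*, and in 910 of 41640 bins (2.19%) in WT RFB OFF. Single *nup132Δ* library pairs gave 3.26% to 6.68%. Among bins at least 0.1 from 0.5 in WT, 9 of 29636 (0.0304%) had the opposite main direction in *nup132Δ*, and 8 of 29627 in WT RFB OFF. By chromosome the share of all smoothed bins was 4.02% on I, 3.24% on II and 2.73% on III. WT RFB OFF had the same order, with 2.56%, 2.10% and 1.48%. Places where the main direction turns from left to right numbered 433 in *nup132Δ* and 471 in WT, and 424 of the 433 had one of WT within 3 kb. Conversely, 421 of the 471 in WT (89.4%) had one in *nup132Δ*, whereas 97.2% had one in WT RFB OFF. Among these 421 the median distance was 0 kb. From right to left, where forks converge, there were 429 in *nup132Δ* and 469 in WT. Of the 429, 413 had a WT place within 3 kb. Of the 469 in WT, 419 (89.3%) had one in *nup132Δ* and 98.3% had one in WT RFB OFF. Among these 419 the median distance was 0.3 kb. These profiles have no replicate of their own in WT, so no test was made.

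Origin steps were smaller in *nup132Δ* at nearly every origin. The mean step in R was 0.235 in *nup132Δ* RFB ON, with an SD of 0.0244 over Pol δ and 0.0567 over Pol ε libraries, and 0.417 in WT RFB ON, and it was lower in *nup132Δ* at 534 of 535 origins, the exception being the weak origin chrIII:780301-780600. The median ratio was 56.6% of WT (interquartile range 51.3% to 59.6%, 516 origins with a WT step of at least 0.1). Per library the mean step was 0.196, 0.224, 0.217 and 0.307 in the Pol δ libraries KK1901, KK1902, KK1518 and KK1517, against 0.404 in WT. In the Pol ε libraries KK1905, KK1906, KK1524 and KK1523 it was 0.167, 0.124, 0.377 and 0.275, against 0.444 in WT. No *nup132Δ* library reached its WT library, and the means were 58.4% (Pol δ) and 53.1% (Pol ε) of WT (exact permutation p = 0.04, the smallest possible). With the Hygro-marked deletions alone the difference was -0.247, and with those of no named marker -0.130, against -0.188 with all (exact permutation p = 0.111 and 0.222, where 0.111 is the smallest possible).

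**Figure D3:**
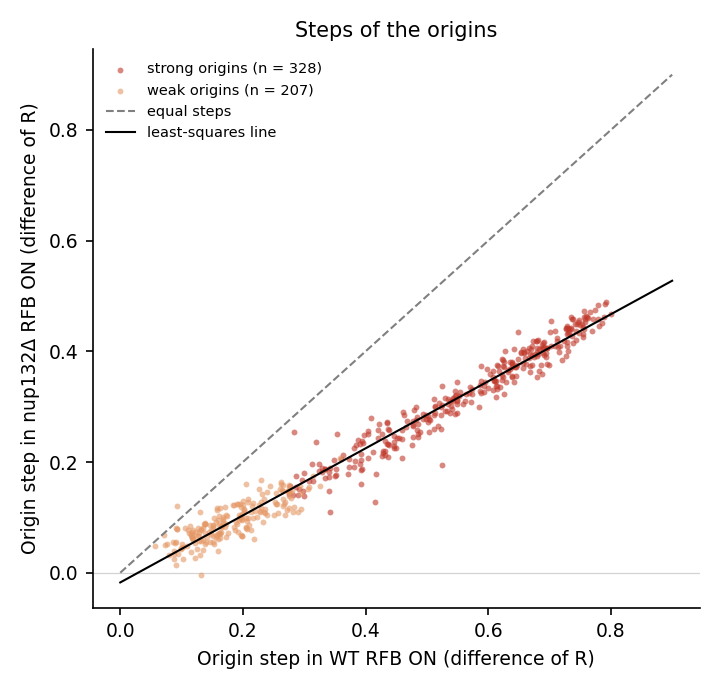
Step in R at each of 535 origins in *nup132Δ* RFB ON (vertical axis) against WT RFB ON (horizontal axis), strong origins in red and weak ones in orange. The points follow a least-squares line of slope 0.606, below the dashed line of equal steps.

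The decrease in step was spread over strong and weak origins, all chromosomes and the chromosome ends. The line of *nup132Δ* on WT steps had a slope of 0.606 and an intercept of -0.0176 (r = 0.987 over 535 origins, a description, since origins share libraries), and that of WT RFB OFF on WT RFB ON a slope of 0.940. Strong origins had a mean step of 0.324 in *nup132Δ* and 0.566 in WT (57.4%), and weak ones 0.0938 and 0.182 (51.5%). The percentages were 56.6%, 55.3% and 57.7% on chromosomes I, II and III, and 55.2% for the 43 origins within 100 kb of a chromosome end. The step of weak over that of strong origins, taken per library, was 0.222 ± 0.0563 in *nup132Δ* Pol δ libraries (SD, n = 4) against 0.303 in WT, and 0.358 ± 0.0291 in *nup132Δ* Pol ε libraries (SD, n = 4) against 0.337 in WT. This ratio was lower in 4 of 8 libraries (exact permutation p = 0.6).

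Tested one by one with limma, with polymerase as a term and with the spread resting on the *nup132Δ* libraries, since WT has 1 library per polymerase, 345 of 535 origins had a lower step in *nup132Δ* (64.5% of those tested, Benjamini-Hochberg adjusted p under 0.05) and 0 a higher one (0%). Without adjustment 382 passed, all lower. Among strong origins 302 of 328 were called, and among weak ones 43 of 207. Every library lay below WT at 427 of 535 origins (79.8%), and at 0 origins did every library lie above it. The steps of a library move together with its asymmetry, so these origins are not separate pieces of evidence. The count was 0 when KK1901, KK1902 or KK1518 was left out, with 344, 343 and 347 origins at an unadjusted p under 0.05, and it lay between 265 and 412 without each of the others.

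Divided by the asymmetry of its library, the origin step was close to WT in Pol ε and lower in Pol δ. The relative step was 0.700 in KK1901, 0.673 in KK1902, 0.624 in KK1518 and 0.762 in KK1517, against 0.812 in the WT Pol δ library. In Pol ε it was 0.811 in KK1905, 0.824 in KK1906, 0.804 in KK1524 and 0.791 in KK1523, against 0.811 in WT. The Pol δ values did not overlap with WT, whereas those of Pol ε lay on either side of it. The means were 85.0% and 99.6% of WT, with a difference of -0.0625 over both polymerases (exact permutation p = 0.16, Benjamini-Hochberg adjusted 0.235), and the effects in the 2 polymerases were not shown to differ (exact permutation p = 0.16). The p was 0.04 with flanks of 6 kb, where the difference was -0.0448, and also when bins of over 3 times the median count were left out of the asymmetry, a setting chosen after seeing the data, where it was -0.0663. With limma, 0 of 535 origins had a changed relative step (0% called, 10 at an unadjusted p under 0.05, of which 9 were lower).

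**Figure D4:**
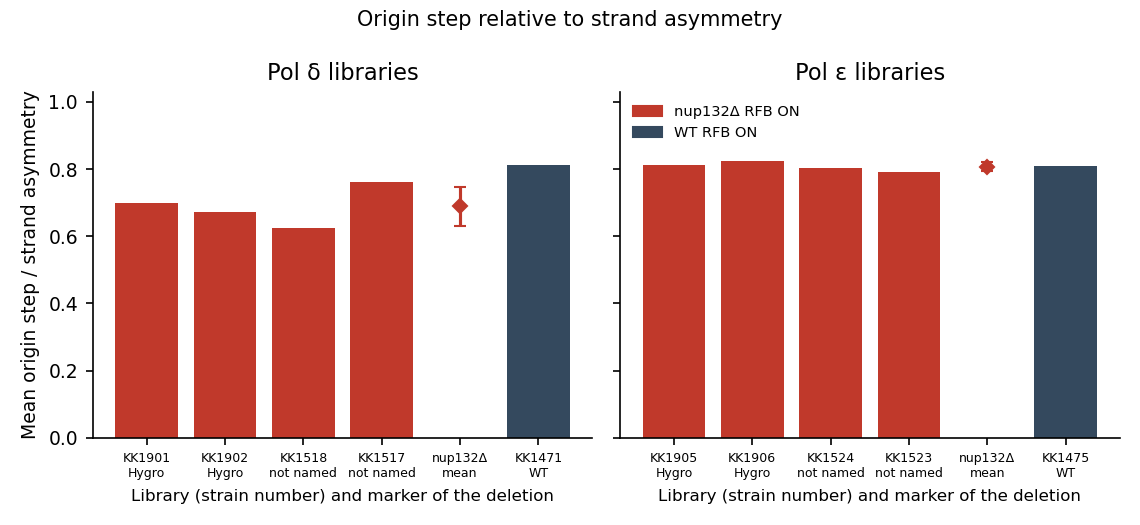
Mean origin step divided by strand asymmetry in each library, *nup132Δ* in red and WT in dark blue, with diamonds and bars for the *nup132Δ* mean ± SD (n = 4). Pol δ libraries of *nup132Δ* lie between 0.624 and 0.762, below 0.812 in WT, and Pol ε libraries between 0.791 and 0.824, around 0.811 in WT.

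The 5 origins with the largest steps in WT RFB OFF all had a smaller step in *nup132Δ*, close to the common ratio. At chrI:4087801-4088100, between *mnl1* and *tsc3*, R stepped up by 0.461 in *nup132Δ*, with 0.285 on the left and 0.746 on the right, and by 0.788 in WT, with 0.115 on the left and 0.903 on the right. Its step in the Pol δ libraries was 0.491 in KK1901, 0.590 in KK1902, 0.555 in KK1518 and 0.640 in KK1517, against 0.836 in WT. In Pol ε it was 0.234 in KK1905, 0.164 in KK1906, 0.613 in KK1524 and 0.474 in KK1523, against 0.780 in WT. All 8 libraries lay below WT, by a fitted -0.338 ± 0.0993 (SE; limma adjusted p = 0.0315). The step at chrI:3634801-3635100, ahead of *ctr5*, was 0.484 in *nup132Δ* and 0.779 in WT. The other origins of this kind, at chrII:3423901-3424200, chrIII:1250701-1251000 and chrIII:367801-368100 in the coordinates of the files, had steps of 0.473, 0.490 and 0.486 in *nup132Δ*, against 0.757, 0.792 and 0.791 in WT. The 5 origins were at 58.5% to 62.5% of WT, and each passed the limma test of the step and not that of the relative step.

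Among origins where all 8 libraries lay on one side of WT in relative step, a pair of strong origins on chromosome II had the lowest fitted differences. At chrII:1257301-1257600 the step was 0.127 in *nup132Δ* and 0.415 in WT, or 30.6%, with R of 0.354 on the left and 0.481 on the right in *nup132Δ*, against 0.193 and 0.608 in WT. Its relative step was 0.555, 0.348, 0.385 and 0.536 in the Pol δ libraries KK1901, KK1902, KK1518 and KK1517, against 0.984 in WT, and 0.217, 0.0935, 0.424 and 0.309 in the Pol ε libraries KK1905, KK1906, KK1524 and KK1523, against 0.656 in WT. R to the right of this origin thus lay just under 0.5 in *nup132Δ* and above it in WT. The fitted relative difference was -0.461 ± 0.102 (SE; limma adjusted p = 0.312), and with the WT RFB OFF libraries added as WT it was -0.475, with a limma adjusted p of 0.000762, the only origin called in that setting. The WT RFB OFF libraries also define the origins and the axis of the asymmetry, so that setting gives no separate support. At chrII:1459501-1459800 the step was 0.195 in *nup132Δ* and 0.525 in WT, or 37.1%, and the fitted relative difference was -0.486 ± 0.133 (SE; limma adjusted p = 0.799). The other 3 origins with the lowest relative difference, chosen by the same rule, were chrIII:2218801-2219100, chrI:3300301-3300600 and chrII:1501501-1501800, with fitted differences of -0.291, -0.261 and -0.238 (limma adjusted p = 0.998 each). The one on chromosome I lies between *eme1* and *glt1*, and had a step of 0.359 in *nup132Δ* and 0.689 in WT. In all, the relative step of every *nup132Δ* library was below WT at 35 of 535 origins and above it at 1, chrIII:780301-780600, where the step was 0.120 in *nup132Δ* and 0.0930 in WT (fitted relative difference 0.250 ± 0.109, SE; limma adjusted p = 0.998). Over all 535 origins the fitted relative difference was below 0 at 416, and the mean relative step in Pol δ was 85.0% of WT. The 35 are therefore not a result about these single origins.

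Of the origins found anew in each profile with a step of at least 0.1, *nup132Δ* had 414 and WT RFB ON 537. An origin of the other profile lay within 1.5 kb for 407 of the 414 (98.3%), and for 407 of the 537 (75.8%). The WT origins with none nearby had a median step of 0.150 in WT, and 4 of them were strong, whereas the shared ones had a median of 0.524. With the threshold scaled to 0.0593 by the slope of R, *nup132Δ* had 511 origins, which covered 492 of the 537 (91.6%). WT RFB OFF, at 0.1, covered 513 of them (95.5%).

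With distance from an origin the outward share declined in both strains, and remained lower in *nup132Δ* at all distances examined. The outward share is R, counted in the direction away from the nearest origin. From 0 to 2 kb it was 0.617 in *nup132Δ*, with an SD of 0.0124 over Pol δ and 0.0287 over Pol ε libraries, and 0.710 in WT. From 8 to 10 kb it was 0.591 in *nup132Δ* and 0.652 in WT, and from 18 to 20 kb 0.556 and 0.587. The excess over 0.5 was 56.0% of WT in the first 2 kb and 64.1% in the last, and in WT RFB OFF it was 95.8% to 101% of WT RFB ON. Over the whole genome R lay nearer 0.5 in *nup132Δ* (slope 0.593 on WT), and the part of that in these values was not tested.

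**Figure D5:**
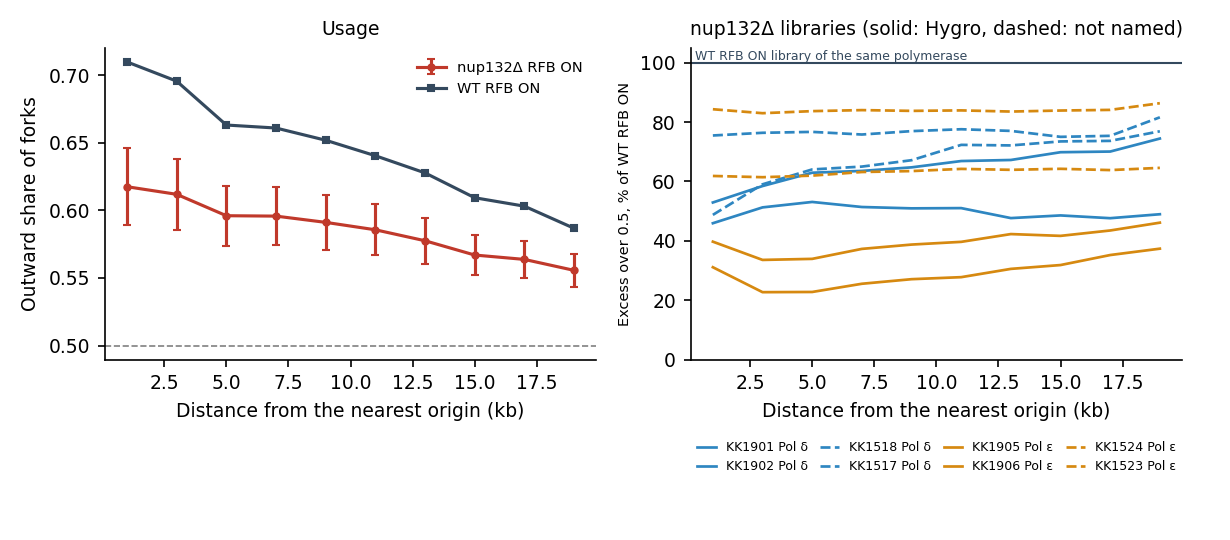
Left, outward share of forks (R away from the nearest origin) by distance in kb, *nup132Δ* RFB ON in red with the larger of the SDs over Pol δ and over Pol ε libraries (n = 4 each), WT RFB ON in dark blue, and right, excess of each *nup132Δ* library over 0.5 as a percentage of the WT library of its polymerase. KK1524 stays at 83.0% to 86.3%, and KK1906 at 22.7% to 37.4%.

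Single libraries differed in how this profile declined. KK1524 had 83.0% to 86.3% of the WT excess at all distances, KK1523 61.4% to 64.6% and KK1517 75.0% to 81.6%. In KK1902 the percentage was 52.9% next to the origin and 74.4% from 18 to 20 kb, and in KK1518 48.7% and 76.9%. The Hygro-marked Pol ε libraries were lowest from 2 to 4 kb, with 33.6% in KK1905 and 22.7% in KK1906. The loss of excess between 2 to 6 kb and 14 to 18 kb was 53.4%, 41.7%, 39.4% and 50.7% in the Pol δ libraries KK1901, KK1902, KK1518 and KK1517, against 49.8% in WT. In Pol ε it was 16.02%, 2.63%, 32.6% and 30.5% in KK1905, KK1906, KK1524 and KK1523, against 33.2% in WT. The difference of -8.10 percentage points was not larger than the spread between libraries (exact permutation p = 0.48).

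The ratio of Pol δ to Pol ε counts was also compared in 8332 windows of 3 kb per strand, with the polymerase-by-strain interaction of a quasi-likelihood fit in edgeR. In the 725 windows on the lagging strand of regions with R of at least 0.8 or at most 0.2 in WT RFB OFF, the log2 ratio was below WT in all 725, with a median of -1.53. On the leading strand of the same regions it was above WT in all 725, with a median of 1.07. The test called 878 windows lower (10.5% of all windows tested) and 823 higher (9.88%) in *nup132Δ*, at a Benjamini-Hochberg adjusted p under 0.05. On lagging strands 441 of 725 windows were called, all lower, and on leading strands 401, all higher. The remaining windows, where forks of both directions pass, had a median of 0.05, with 437 called lower and 422 higher of 6882. The lagging-strand median was -1.48, -1.44 and -1.70 on chromosomes I, II and III, and the leading-strand median 1.12, 1.06 and 0.96. No window was called without KK1901, KK1902, KK1518, KK1905 or KK1523 (3242 to 3586 windows at an unadjusted p under 0.05), nor when all 16 RFB ON libraries, *rpn10Δ* included, were fitted together (2037 windows at an unadjusted p under 0.05). Without KK1517 it called 653 windows lower and 1005 higher, a balance opposite to that with all libraries. Without KK1524 the test called 4231 windows, and a DESeq2 Wald test on all 10 libraries called 3583.

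The level of counts around origins lay on opposite sides of WT in Pol δ and Pol ε libraries. Counts within 2 kb of an origin over those from 10 to 20 kb away were 0.969, 0.957, 0.981 and 0.943 in the *nup132Δ* Pol δ libraries KK1901, KK1902, KK1518 and KK1517, against 1.00 in WT. In Pol ε they were 0.972 in KK1905, 0.949 in KK1906, 0.951 in KK1524 and 1.03 in KK1523, against 0.882 in WT. All Pol δ libraries lay below their WT library and all Pol ε libraries above theirs, and the effects in the 2 polymerases differed by -0.131 (exact permutation p = 0.04, the smallest possible; 0.88 after Benjamini-Hochberg adjustment over 22 such differences). Chromosome III held 26.0% ± 1.06 of counts in *nup132Δ* Pol δ libraries against 26.6% in WT, and 22.7% ± 0.370 in *nup132Δ* Pol ε libraries against 20.7% in WT (SD, n = 4 each; exact permutation p = 0.48).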

How the data were processed

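Genomic DNA of *S. pombe* was digested with RNase H2, size selected and sequenced, and the authors deposited, for each library, whole-number counts of read ends, 1 value per strand and 300-bp bin. Their processing notes name Bowtie2. Neither its version nor the genome build is given in the sources used here, so coordinates are those of the files, and genes and sequences (RefSeq ASM294v3) were read on chromosome I alone.

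Bins with a mean of under 10 counts per library and the 70 kb around the barrier were left out. Counts were scaled by library totals and averaged per polymerase, and Pol δ usage is δ/(δ + ε) per strand. Libraries were compared by two-sided exact permutation within polymerase, origin steps with limma 3.58.1, and 3-kb windows with edgeR 4.0.16 (quasi-likelihood, TMM, R 4.3.3), with DESeq2 1.42.0 as an alternative. Profiles were computed with Python 3.11.15, numpy 2.4.6, scipy 1.17.1 and pandas 2.3.3, and scripts were tested on simulated data. Origins named are the 5 with the largest step in WT RFB OFF, and those with the 5 highest and 5 lowest fitted relative differences where all 8 libraries lay on one side of WT, a rule that only 1 origin met on the high side. Alternatives covered flank length, origin threshold, filters, window size, scaling, added libraries, the marker and each library left out. Intervals cover counting error only. Total counts of 5396348 to 38663174 in *nup132Δ* libraries gave counting errors far below the spread between libraries. The comparison, its origin rule and its regions were chosen with earlier results of these data known. The shallow WT RFB ON library KK1470 was left out of all tests except where named, the shallow WT RFB OFF library KK1468 was not used, and the *rpn10Δ* libraries were used in 1 alternative.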

Additional observations from a re-analysis of the deposited data

Results flagged for a closer look

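Groups of 4 *nup132Δ* libraries were searched for a library far from the other 3 with Dixon's test, in 70 sets of values. In 3 sets 1 was found, which is not more than the about 1 in 20 sets that chance gives. The Pol δ library KK1517 had the fewest counts, 5396348, against 12065673 to 13270315 in the other Pol δ libraries of *nup132Δ*. It also had the highest asymmetry of these 4 libraries, and the part of depth in that was not tested. The Pol ε library KK1905 had the highest step of weak over strong origins, 0.401, against 0.339 to 0.348 in the others. At the weak origin chrIII:2218801-2219100 the relative step of the Pol δ library KK1901 was 0.809, against 0.582 to 0.608 in the other *nup132Δ* Pol δ libraries and 0.841 in WT.

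The level of counts near origins was flagged because the Pol δ effect of *nup132Δ* minus the Pol ε effect was -0.131 (exact permutation p = 0.04, the smallest of 25 arrangements). With Benjamini-Hochberg adjustment over 22 measures this exact permutation p was 0.88, so the effects were not shown to differ. All 4 Pol δ libraries of *nup132Δ* were below WT and all 4 Pol ε libraries above it.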

How the results depend on the processing

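No difference changed its sign under the alternatives run, but the balance of called windows, 878 lower and 823 higher, turned to 653 lower and 1005 higher without KK1517. Strand asymmetry and mean origin step were no longer past 0.05 in designs that cannot go below it: with each *nup132Δ* library left out in turn the differences were -0.235 to -0.182 (exact permutation p = 0.05 to 0.1) and -0.212 to -0.170 (exact permutation p = 0.05), where 0.05 is the smallest p possible. With the Hygro marker alone they were -0.281 and -0.247, and with no marker named -0.131 and -0.130. The relative step passed 0.05 with the WT RFB OFF libraries added as WT (-0.0625, exact permutation p = 0.0343), although these also define the origins and the axis, with 6-kb flanks (-0.0448) and, chosen after seeing the data, without bins of over 3 times the median count (-0.0663). Of its other 15 alternatives, 10 could not go below 0.05, and the 5 that could gave p from 0.08 to 0.44 (exact permutation). Origins with a changed step numbered 0 to 412 with a library left out, and those with a changed relative step 0 in all alternatives except 1 with WT RFB OFF added, chrII:1257301-1257600, at -0.475. Windows with a changed polymerase ratio numbered 1701, against 0 to 4231 with a library left out, 3096 in 1.5-kb windows, 0 with all 16 RFB ON libraries, 5006 with WT RFB OFF added and 3583 with DESeq2. The share of bins with the opposite main direction was 5.93% without smoothing and 0.0304% where WT lay at least 0.1 from 0.5. The cause of these changes was not tested. The difference in the fall of the outward share with distance, -8.10 percentage points, lay between -10.1 and -5.14 with a library left out (-5.14 without KK1906), and was -13.0 with the Hygro marker alone and -3.17 with no marker named, and these 10 designs could not go below 0.05. The other 4 alternatives gave -8.85 to -7.71 (exact permutation p = 0.149 to 0.48). No paired analysis was possible because the labels give each library its own strain number. WT RFB ON has 1 deep library per polymerase, so its own spread is not measured.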
